A study of Mus musculus with 7 samples.

Results

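The growth hormone, STAT5 and IGF1 axis was followed through 10 genes in mouse liver: Ghr, Jak2, Stat5a, Stat5b, Socs2, Cish, Igf1, Igfals, Bcl6 and Mup20. They were chosen by symbol, and all 10 were found among the 14889 genes of the count table. The livers came from ApoE-/- mice of the C57BL/6 strain, 4 months old, which lack apolipoprotein E and had eaten Western diet for 3 months. Of these, 3 received PX-478 at 40 mg/kg and 4 received saline, both by intraperitoneal injection on a schedule labelled bi-weekly. PX-478, the N-oxide of the alkylating drug melphalan, is used as an inhibitor of the hypoxia factor HIF-1α. Every mouse carried the ApoE deletion and ate the diet, so neither can be separated from the drug comparison, which asks how liver transcripts of treated mice differ from those of saline mice.

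Growth hormone from the pituitary binds its receptor on hepatocytes, which activates the kinase JAK2 and, through it, the transcription factors STAT5A and STAT5B. STAT5 induces Igf1, which encodes the main circulating growth factor downstream of growth hormone, and Igfals, which encodes the protein that keeps IGF1 in a stable serum complex, together with the feedback inhibitors Socs2 and Cish. In male rodents the hormone arrives in pulses, and the pulses maintain a male pattern of liver genes that includes most major urinary proteins, while the repressor BCL6 opposes STAT5 at many of its sites. The 4 Y-linked genes examined each had at least 84 reads in every library, so the livers were male.

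Libraries held 10285776 to 17257304 counted reads, and 13693 genes passed the count filter, all 10 members among them, each with at least 124 reads in every library. PX-478 replicate 2 had the fewest reads, the highest scaling factor (1.29) and the lowest share of mitochondrially encoded reads, 22.4% against 27.1% to 36.7% in the others. Hepatocyte markers were abundant in every library, and 7 of 9 had lower means in PX-478, with summed levels of 34721 to 41646 CPM in PX-478 and 38847 to 54564 CPM in saline. Kupffer cell and macrophage markers were lower in 11 of 12, at 338 to 467 CPM in PX-478 and 369 to 712 CPM in saline, and sinusoidal endothelial markers were higher in 8 of 9. None of these markers was at 0 in a library, while 6 of 8 lymphocyte markers were at 0 in at least 1. Their part in the results was not tested, and in whole tissue fewer cells of a type and less RNA per cell cannot be told apart.

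No member of the axis differed between PX-478 and saline livers beyond the spread between libraries. In edgeR's quasi-likelihood test 0 of the 10 passed an adjusted p of 0.05, where 0.0073% of all genes tested did. At an unadjusted p under 0.05 there were also 0 of 10, where 6.97% of all genes passed. In no member did the libraries of the groups stand apart, as they did in 8.59% of all genes. Means were higher in PX-478 for 4 members and lower for 6, with a median log2 fold change of -0.02, against -0.0035 over all genes tested. Scaling by library size alone shifted the median of all genes to 0.15, and relative to that median Stat5a stood at -0.06 and Igf1 at 0.01. Of the 10 intervals, 6 lay within a log2 fold change of 1 in either direction, and those of Socs2, Cish, Bcl6 and Mup20 did not.

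**Figure D1:**
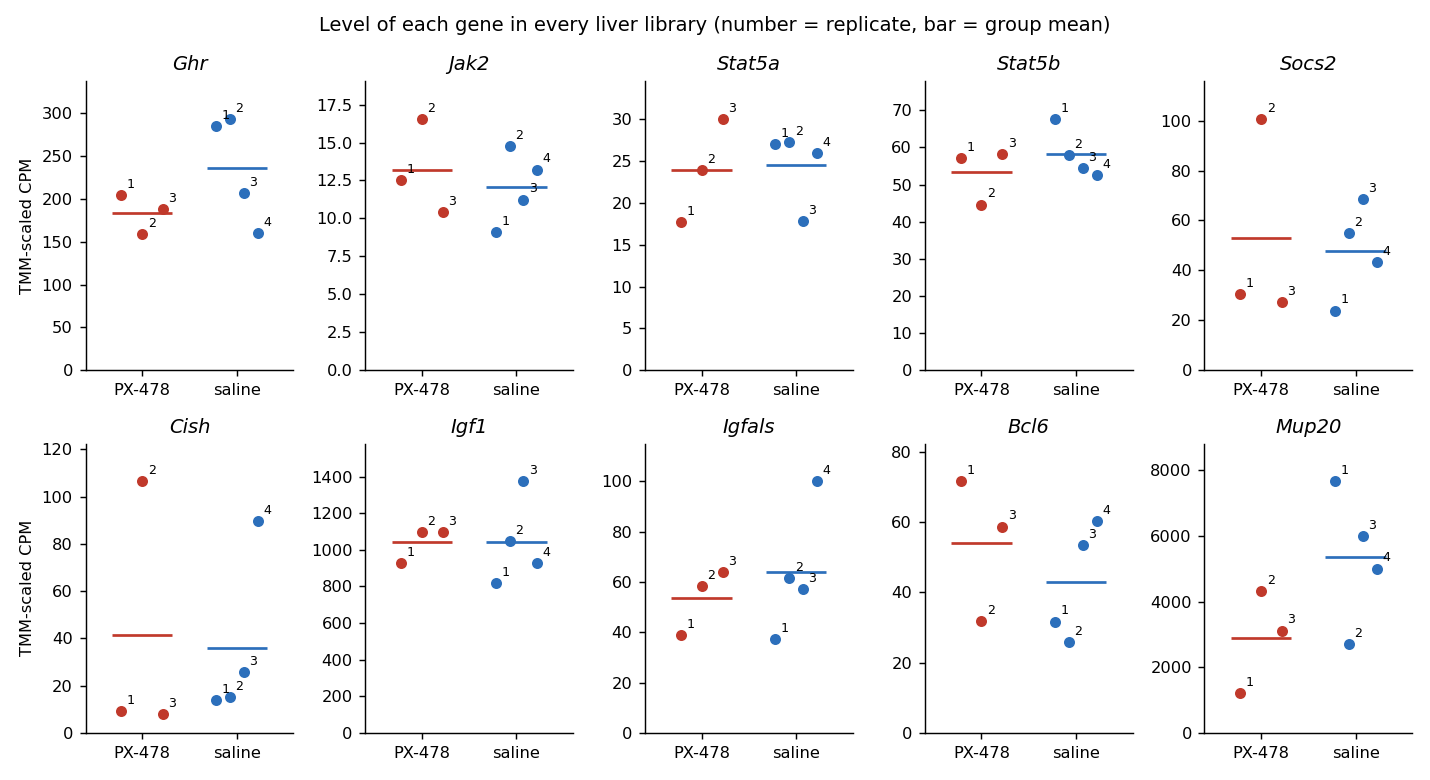
Level of each gene in TMM-scaled CPM (vertical axis, starting at 0) in the 3 PX-478 libraries (red, left) and the 4 saline libraries (blue, right). Each point is a library labelled with its replicate number and the bar is the group mean; the groups overlap in all 10 panels, and Cish stands near 100 CPM in PX-478 replicate 2 and saline replicate 4 alone.

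The receptor gene Ghr (chromosome 15, 3317755 to 3583352, GRCm38) had 205, 159 and 188 CPM, the read count relative to library size after TMM scaling, in PX-478 replicates 1 to 3. In saline replicates 1 to 4 it had 285, 294, 207 and 159.7 CPM. With this scaling PX-478 replicate 2 and saline replicate 4 were the lowest of the 7 and nearly equal. Every PX-478 library then lay below saline replicates 1 to 3. Scaled by library size alone, PX-478 replicates 1 and 2, at 210 and 204 CPM, lay above saline replicate 3, at 185 CPM. The lowest were then saline replicate 4 (154 CPM) and PX-478 replicate 3 (167 CPM). The means were 184 ± 23.3 CPM in PX-478 (SD, n = 3) and 236 ± 64.3 CPM in saline (SD, n = 4), with a log2 fold change of -0.36 (SE 0.23, 95% interval -0.87 to 0.14, edgeR adjusted p = 0.792). In the authors' deposited table the log2 fold change of Ghr is -0.36 with an unadjusted p of 0.0345 in their edgeR test. An unadjusted p under 0.05 was reached by 25.9% of all genes of that table.

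Jak2, the receptor-bound kinase (chromosome 19, 29251803 to 29313095), had 12.5, 16.6 and 10.4 CPM in PX-478 and 9.12, 14.7, 11.2 and 13.2 CPM in saline. The groups overlapped throughout, with a log2 fold change of 0.13 (95% interval -0.41 to 0.67).

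Stat5b, the main growth hormone effector of the male mouse liver, lies next to Stat5a on chromosome 11 (100780731 to 100859004 and 100859351 to 100885169). Stat5b had 57.1, 44.6 and 58.1 CPM in PX-478 and 67.7, 57.8, 54.5 and 52.6 CPM in saline, and of the 10 genes it varied least over the 7 libraries, by 1.52-fold between the highest and the lowest. Its log2 fold change was -0.13 (95% interval -0.52 to 0.27). Stat5a had 17.7, 23.9 and 30.1 CPM in PX-478 and 27.0, 27.3, 17.8 and 25.9 CPM in saline, with a log2 fold change of -0.04 (95% interval -0.54 to 0.47). The low library was replicate 1 among PX-478 and replicate 3 among saline. The STAT5 genes are close paralogs: 14.7% of the 50-base windows of Stat5a transcripts in the GENCODE M21 annotation also occur in Stat5b, and 11.1% of those of Stat5b in Stat5a, so a small share of their reads could be assigned to either.

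The feedback inhibitors varied far more between livers of the same group than the receptor and kinase did. Cish (chromosome 9, 107296659 to 107302784), which encodes a protein that binds the activated receptor and limits STAT5 recruitment, had 9.34, 106 and 8.09 CPM in PX-478. In saline it had 14.0, 15.1, 25.6 and 89.7 CPM. In each group 1 library was high, PX-478 replicate 2 and saline replicate 4, and the other 5 libraries lay at or below 25.6 CPM. The highest library exceeded the lowest 13.2-fold, and the SD of log2 CPM over the 7 libraries, 1.498, was at the 99.7th percentile of 3679 genes of like level. The group means were therefore close, 41.3 ± 56.4 CPM in PX-478 (SD, n = 3) and 36.1 ± 36.1 CPM in saline (SD, n = 4), and the 95% interval of the log2 fold change of 0.19 ran from -2.81 to 3.19. Without PX-478 replicate 2 it was -2.06 (adjusted p = 0.638), and without saline replicate 4 it was 1.17 (adjusted p = 0.861), both in edgeR. PX-478 replicate 2 was also the library with the fewest reads and the lowest mitochondrial share, and saline replicate 4 was not unusual in either; the part of these measures was not tested.

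Socs2 (chromosome 10, 95383903 to 95417321), the inhibitor whose loss in mice causes overgrowth, had 30.5, 101 and 27.3 CPM in PX-478 and 23.9, 55.1, 68.5 and 43.4 CPM in saline. PX-478 replicate 2 was again the highest, but saline replicate 4 was not among the high ones. Means were 52.8 ± 41.5 CPM in PX-478 (SD, n = 3) and 47.7 ± 18.9 CPM in saline (SD, n = 4), with a log2 fold change of 0.15 (95% interval -1.07 to 1.37). Without PX-478 replicate 2 that value was -0.73 (adjusted p = 0.627 in edgeR). The SD of Socs2 was at the 97.0th percentile of 3176 genes of like level.

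The other family members with a SOCS box, given here after their values were seen, sorted into genes that shared the Cish pattern and genes that did not. Socs3, a feedback inhibitor induced by interleukin-6 and by growth hormone, had 7.52, 19.97 and 7.63 CPM in PX-478 and 12.4, 11.9, 10.97 and 58.3 CPM in saline. Socs1, an inhibitor best known from interferon signalling, had 0.418, 7.87 and 1.24 CPM in PX-478 and 0.391, 0.0867, 0.463 and 5.39 CPM in saline, from 1 to 104 reads. In Cish, Socs1 and Socs3, 3 of the 8 genes of the family, the highest 2 libraries were PX-478 replicate 2 and saline replicate 4. Cish itself set this pattern, and its share over all genes was not counted. Outside the family, Foxa2, Igfbp7, Col1a1, Col3a1 and Dcn, named after their values were seen, had the same highest 2 libraries. The pattern was therefore not particular to this family. Socs5, Socs6 and Socs7 ranged only from 5.16 to 8.85, from 4.96 to 12.0 and from 8.39 to 11.7 CPM over the 7 libraries, and Socs4 had at most 33 reads. None of the 8 passed the test between the groups.

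The start of the Cish gene holds the letters that STAT5 prefers, and its window is shown for that reason, with those of Igfals and Bcl6. The search was for TTCNNNGAA, which reads the same on both strands, in the RefSeq windows (build GRCm38.p6) from 250 bases before to 50 after each gene start. Of the 10 members 8 had 1 or more windows, 14 in all, and 3 of the 8 held the motif. Over all genes in that table, 9.55% had a window with it, and 8.30% of all 32851 windows held it. The windows below run to base 25 after the start, 5′ to 3′ on the gene's strand, with matches in capitals.
Cish, chr9:107296409-107296683, plus strand: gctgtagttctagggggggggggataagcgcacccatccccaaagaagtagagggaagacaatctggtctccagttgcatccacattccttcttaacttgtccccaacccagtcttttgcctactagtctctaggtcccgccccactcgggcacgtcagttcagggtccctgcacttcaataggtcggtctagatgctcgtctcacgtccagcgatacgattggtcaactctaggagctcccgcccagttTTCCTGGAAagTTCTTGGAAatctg
Bcl6, second start, chr16:23981259-23981533, minus strand: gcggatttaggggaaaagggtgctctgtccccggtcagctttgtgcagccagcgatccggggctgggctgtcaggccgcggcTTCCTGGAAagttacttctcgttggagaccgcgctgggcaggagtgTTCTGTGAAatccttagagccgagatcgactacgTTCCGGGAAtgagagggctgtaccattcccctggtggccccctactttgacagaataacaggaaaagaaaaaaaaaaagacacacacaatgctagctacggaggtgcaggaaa
Igfals, second start, chr17:24877981-24878255, plus strand: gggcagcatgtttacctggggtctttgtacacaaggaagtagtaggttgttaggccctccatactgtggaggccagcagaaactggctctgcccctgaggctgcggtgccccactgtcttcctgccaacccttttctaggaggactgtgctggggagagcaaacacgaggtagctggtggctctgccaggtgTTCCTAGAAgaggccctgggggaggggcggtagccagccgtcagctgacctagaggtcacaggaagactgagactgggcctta

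Cish had 2 matches, starting at bases 1 and 12 of the transcript, and Bcl6 had 3 at its second start, at bases -168, -122 and -88. Windows with 2 or more matches made up 0.457% of all windows, and those with 3 or more 0.0335%. The first Bcl6 window held 1 match at -118, and Igfals held 1 at each of its first and second starts, at -236 and -58. The windows of Ghr, Jak2, Stat5a, Stat5b and Igf1 held none of these letters. A match in sequence is a description of the window and not a measured binding site.

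The group means of the Igf1 transcript in liver were nearly equal, and these data hold no level of the IGF1 protein. Igf1 (chromosome 10, 87858265 to 87937047) had 929, 1095 and 1097 CPM in PX-478 and 817, 1047, 1373 and 926 CPM in saline. After TMM scaling the PX-478 libraries lay inside the saline range. Scaled by library size alone, PX-478 replicate 2 was the highest of the 7, at 1407 CPM, above saline replicate 3 at 1229 CPM. Means were 1040.2 ± 96.6 CPM in PX-478 (SD, n = 3) and 1041 ± 241 CPM in saline (SD, n = 4), with a log2 fold change of -0.00061 (SE 0.22, 95% interval -0.48 to 0.48, edgeR adjusted p = 0.999). Cish and Igf1 thus differed widely in spread, with an SD of log2 CPM over the 7 libraries of 1.498 for Cish and 0.24 for Igf1.

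Igfals (chromosome 17, 24877844 to 24882011) had 38.9, 58.4 and 63.9 CPM in PX-478 and 37.4, 61.6, 57.1 and 99.98 CPM in saline. Only saline replicate 4, the saline library with high Cish, stood above the PX-478 range. The log2 fold change was -0.25 (95% interval -0.90 to 0.39) and turned to 0.05 without saline replicate 4.

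Bcl6 (chromosome 16, 23965050 to 23988866), whose transcript growth hormone lowers through STAT5, had 71.6, 31.8 and 58.7 CPM in PX-478 and 31.7, 25.8, 53.4 and 60.4 CPM in saline. It was lowest in PX-478 replicate 2 among the treated livers, the library with the highest Cish and Socs2. Saline replicate 4, the other library with high Cish, had the highest Bcl6 of the saline livers. The log2 fold change was 0.33 (95% interval -0.40 to 1.07) and fell to 0.08 without PX-478 replicate 1.

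**Figure D2:**
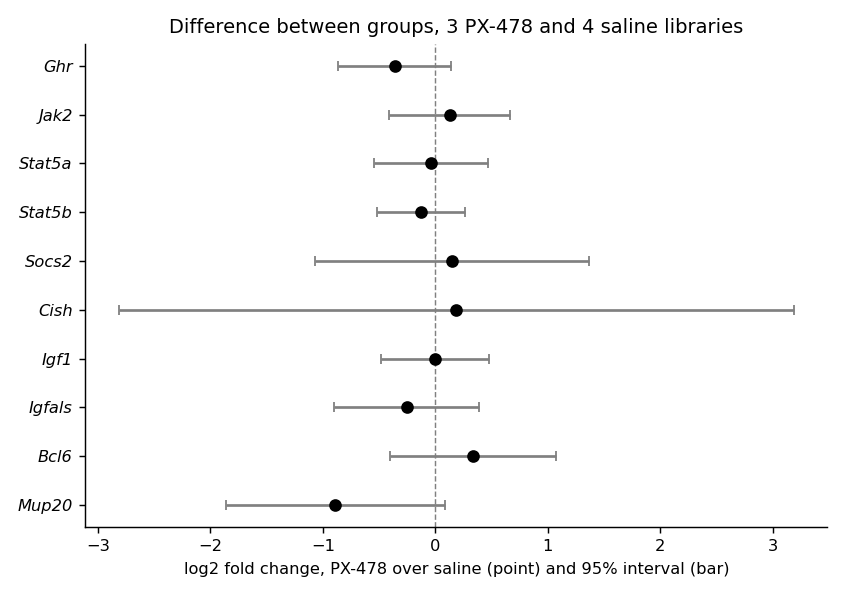
Horizontal axis, log2 fold change (PX-478 over saline); each gene is a point with its 95% interval (3 PX-478 and 4 saline libraries). Every interval includes 0, and that of Cish is the widest, from -2.81 to 3.19.

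Mup20 (chromosome 4, 62011337 to 62054143), which encodes the male pheromone darcin, had the largest difference of the 10. It had 1207, 4328 and 3116 CPM in PX-478 and 7661, 2708, 6007 and 5003 CPM in saline. After TMM scaling 3 of the saline livers lay above every PX-478 liver, and saline replicate 2 lay below PX-478 replicates 2 and 3. Scaled by library size alone, PX-478 replicate 2, at 5563 CPM, lay above saline replicates 3 and 4, at 5374 and 4832 CPM. Saline replicate 2, at 2848 CPM, then lay just above PX-478 replicate 3, at 2767 CPM. Means were 2884 ± 1574 CPM in PX-478 (SD, n = 3) and 5345 ± 2071 CPM in saline (SD, n = 4), with a log2 fold change of -0.89 (95% interval -1.86 to 0.08, unadjusted p = 0.0688, edgeR adjusted p = 0.736). Leaving out single libraries moved it between -1.31 without PX-478 replicate 2 and -0.52 without PX-478 replicate 1. The authors' deposited table gives -0.89 with an unadjusted p of 0.0144.

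Mup20 did not follow the rest of its family in every liver. The 22 other Mup entries together had 27739, 26683 and 137289 CPM in PX-478 and 134069, 61802, 137108 and 122535 CPM in saline. Family levels were thus low in PX-478 replicates 1 and 2, intermediate in saline replicate 2 and high in the other 4 libraries, PX-478 replicate 3 among them. Mup20 took 4.17%, 14.0% and 2.22% of all Mup reads in PX-478 and 5.41%, 4.198%, 4.197% and 3.92% in saline. The saline livers lay close together and PX-478 replicate 1 lay among them, while PX-478 replicate 2 was the highest and PX-478 replicate 3 the lowest of all. The 22 other entries had log2 fold changes from -1.13 (Mup17) to -0.11 (Mup4), all below 0 under each of 4 scalings, and 0 passed the test. Mup10, Mup-ps12 and Mup13 had the smallest unadjusted p of the family, 0.0884, 0.0924 and 0.0980 in edgeR, with log2 fold changes of -0.91, -0.97 and -0.998. Without PX-478 replicate 3, the PX-478 library with high Mup levels, Mup15 had a log2 fold change of -2.62 (adjusted p = 0.0466 in edgeR). With it the value was -0.89 (adjusted p = 0.859). Mup15 was named after its values were seen, as the Mup entry that passed in a refit. With all 7 libraries its unadjusted p was 0.304 in edgeR, number 20 of the 22 entries.

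Many Mup entries are near-copies, so the 22 values are not independent and reads may be split among them. The share of 50-base transcript windows in GENCODE M21 that also occur in another Mup gene was 4.66% for Mup20, and it was likewise low for Mup6 (1.68%), Mup4 (12.3%), Mup3 (12.6%), Mup5 (16.1%) and Mup21 (19.1%). The other Mup genes of that annotation ranged from 61.0% for Mup1 to 100% for Mup15 and Mup22. No source used here states the read length.

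**Figure D3:**
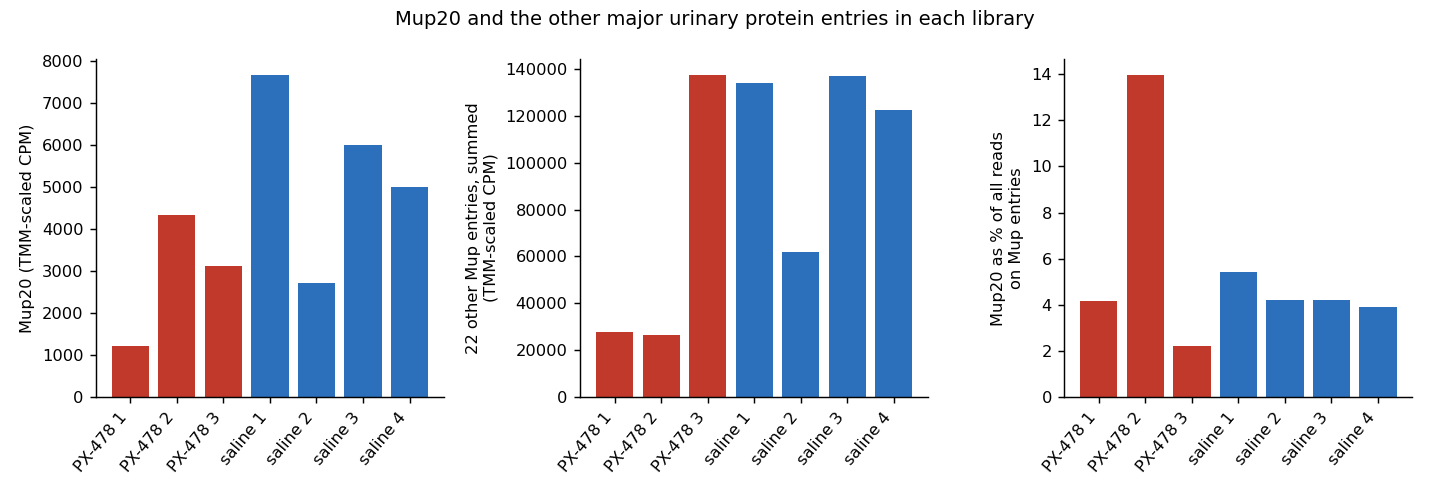
Bars give, for each library (PX-478 red, saline blue), Mup20 in TMM-scaled CPM (left), the sum of the 22 other Mup entries in TMM-scaled CPM (middle) and Mup20 as a percentage of all reads on Mup entries (right). PX-478 replicate 2 combines the lowest family sum, 26683 CPM, with the highest Mup20 share, 14.0%.

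Mup20 was set against the STAT5 targets Socs2 and Cish and the repressor gene Bcl6 across the 7 libraries, on log2 CPM, with two-sided exact permutation tests, adjusted over the 3 relations. With Socs2, Pearson's r was 0.16 (exact permutation p = 0.734, adjusted p = 0.734) and Spearman's rho -0.07 (exact permutation p = 0.906). Leaving out PX-478 replicate 2 and saline replicate 1, the libraries farthest from the median of Socs2, gave r = 0.62. With Bcl6, r was -0.36 (exact permutation p = 0.443, adjusted p = 0.665) and rho -0.29 (exact permutation p = 0.556), and r was -0.50 without saline replicates 1 and 2. The sign of r with Socs2 and with Bcl6 turned without PX-478 replicate 1 alone, to -0.16 and 0.13.

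With Cish the libraries formed 2 clusters, of 2 and 5, too few within either to test a relation, so the pooled r of 0.43 (exact permutation p = 0.334, adjusted p = 0.665) and rho of 0.36 (exact permutation p = 0.444) only describe these libraries. In the 2 libraries with high Cish, Mup20 stood at 4328 and 5003 CPM, and in the other 5 from 1207 to 7661 CPM. With the mean of each group subtracted, r was 0.19 for Socs2 and -0.23 for Bcl6 (exact permutation p = 0.771 and 0.639). With 7 libraries, neither relation could be told from no relation.

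**Figure D4:**
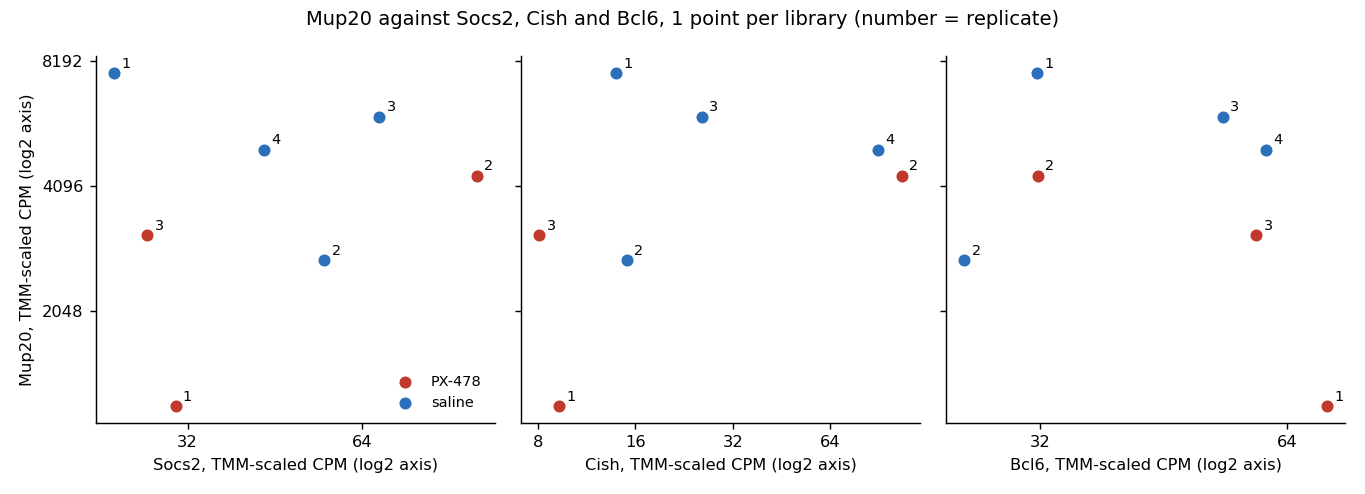
Mup20 (vertical, TMM-scaled CPM, log2 axis) against Socs2, Cish and Bcl6 (horizontal, TMM-scaled CPM, log2 axes), with PX-478 libraries in red and saline libraries in blue, numbered by replicate. Points scatter widely for Socs2 and Bcl6, with r of 0.16 and -0.36, and in the Cish panel PX-478 replicate 2 and saline replicate 4 stand apart from the rest.

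The genes most like Mup20 across the 7 libraries, outside the Mup family and the 10 genes, were Ldha (r = 0.99), Gng5 (r = 0.99) and Cox6a1 (r = 0.98). They led 8014 genes whose mean log2 CPM reached 3, of which 163 had an r above 0.9. Ldha encodes lactate dehydrogenase A, Gng5 a G protein gamma subunit and Cox6a1 a subunit of cytochrome c oxidase. At the other end stood Stag1 of the cohesin complex (r = -0.98), the splicing factor kinase gene Clk2 (r = -0.98) and Exoc7 of the exocyst (r = -0.97). These are the extremes of a ranking over many genes with only 7 points each, and they describe these libraries only.

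Per kilobase of exon, which allows levels to be compared between genes, the 10 genes covered over 3 orders of magnitude. In PX-478 livers Mup20 had 3107 ± 1696 CPM per kb, Igf1 105 ± 9.75, Ghr 39.7 ± 5.02 and Jak2 2.62 ± 0.619 (SD, n = 3). In saline livers Mup20 had 5760 ± 2232 CPM per kb, Igf1 105 ± 24.3, Ghr 51.0 ± 13.9 and Jak2 2.40 ± 0.485 (SD, n = 4). Mup20 was above Igf1 and Igf1 above Ghr in all 7 libraries. Igfals, Socs2, Bcl6, Stat5b, Cish and Stat5a followed in saline, from 24.4 ± 9.97 to 6.18 ± 1.13 CPM per kb, and neighbours in that order overlapped.

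Other genes of the pathway were read in lists, and 0 of the 121 tested passed the threshold, where 0.0073% of all genes did. The signalling list of receptors, kinases, phosphatases and adaptors had 11 of 22 higher and 11 lower in PX-478, or 14 higher and 8 lower scaled by library size alone (10 below its shifted median), and a median log2 fold change of 0.02, against -0.0035 over all genes. Its smallest p-values belonged to Sirpa, Sh2b3 and Grb2. Sirpa, an inhibitory receptor that JAK2 phosphorylates, had 42.3 ± 10.8 CPM in PX-478 (SD, n = 3) and 58.0 ± 5.24 CPM in saline (SD, n = 4), a log2 fold change of -0.46 (adjusted p = 0.695 in edgeR). The adaptor Sh2b3, also called LNK, had a log2 fold change of 0.39 and the adaptor Grb2 one of -0.36. In the IGF system 9 of 14 were higher and 5 lower (median 0.16), or 11 higher and 3 lower scaled by library size alone (5 below its shifted median). Igfbp5 and Igfbp2, which encode IGF binding proteins, had log2 fold changes of 0.96 and 0.64 (adjusted p = 0.700 and 0.737 in edgeR), and Igfbp7 one of 0.48. Igfbp7 had 90.5 CPM in PX-478 replicate 2 but 33.3 and 31.8 CPM in PX-478 replicates 1 and 3, below the saline mean of 37.3 CPM.

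Sex-biased liver genes that depend on the hormone pattern did not pass the test. Of 22 male-biased genes 19 were lower in PX-478 and 3 higher, with a median of -0.45. Among those lower, Moxd1 (log2 fold change -2.25), named after its values were seen, had 0, 0.98 and 23.4 CPM in PX-478. It passed the count filter only through saline, so for Moxd1 the filter favoured a lower level in PX-478. Of 26 female-biased genes listed, 14 were in the count table and 13 were tested, 10 higher and 3 lower, with a median of 1.03. Among those higher, Cyp2c69, Nipal1 and Acot3 were at or near 0 in some saline libraries and passed the count filter only through PX-478. For them the filter favoured a higher level in PX-478, which also raises the count and the median. At an unadjusted p under 0.05 in edgeR there were 3 male-biased and 5 female-biased genes, Cyp2c69 among the latter, where 6.97% of all genes passed. The leading male-biased genes were Elovl3, a fatty acid elongase, Cyp2u1 and Cyp4a12a, both fatty acid hydroxylases, with log2 fold changes of -2.84, -1.20 and -1.09. Elovl3 had 12.1, 27.4 and 14.5 CPM in PX-478 and 286, 93.8, 101 and 34.8 CPM in saline, so the groups did not overlap (adjusted p = 0.546 in edgeR). The leading female-biased genes went in both directions: the monooxygenase gene Fmo2 at 1.03, the steroid hydroxylase gene Cyp2a4 at 2.12 and its relative Cyp2a22 at -0.87. Summed levels of the male-biased list overlapped, at 3755 to 9475 CPM in PX-478 and 4101 to 12210.4 CPM in saline. They were low in PX-478 replicate 1 and saline replicate 2, which were also low in Mup20. Serpina1e and Selenbp2 had the highest means of that list, 1544 and 1153 CPM in PX-478 and 2281 and 1333 CPM in saline. Both were lowest in those same libraries, so the male-biased sum reflects its most abundant genes and not the list as a whole. Summed levels of the female-biased list did not overlap, at 347 to 629 CPM in PX-478 and 130.1 to 307 CPM in saline. Most of that sum came from Fmo1 and Cyp2a4, with means of 198 and 160 CPM in PX-478 and 135 and 36.8 CPM in saline. The sum thus describes mainly these genes and not the list as a whole. Gene by gene the groups stood apart in 4 of the 13, Cyp2a22 among them in the lower direction, against 8.59% of all genes.

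Among the transcription factors that carry sex-dependent hormone signals, 5 of 15 were higher and 10 lower (median -0.12), or 10 higher and 5 lower when libraries were scaled by size alone; relative to the shifted median of that scaling 9 were lower. Trim24, a coregulator, and the pioneer factor gene Foxa1 had log2 fold changes of 0.63 and -0.39 (adjusted p = 0.792 and 0.822 in edgeR). Fasting and glucocorticoid response genes, which mark states that alter hormone action, had 6 of 14 higher and 8 lower (median -0.08), led by G6pc, the last enzyme of glucose production, at -1.78 and Sgk1, a kinase gene that glucocorticoids induce, at 0.45.

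**Figure D5:**
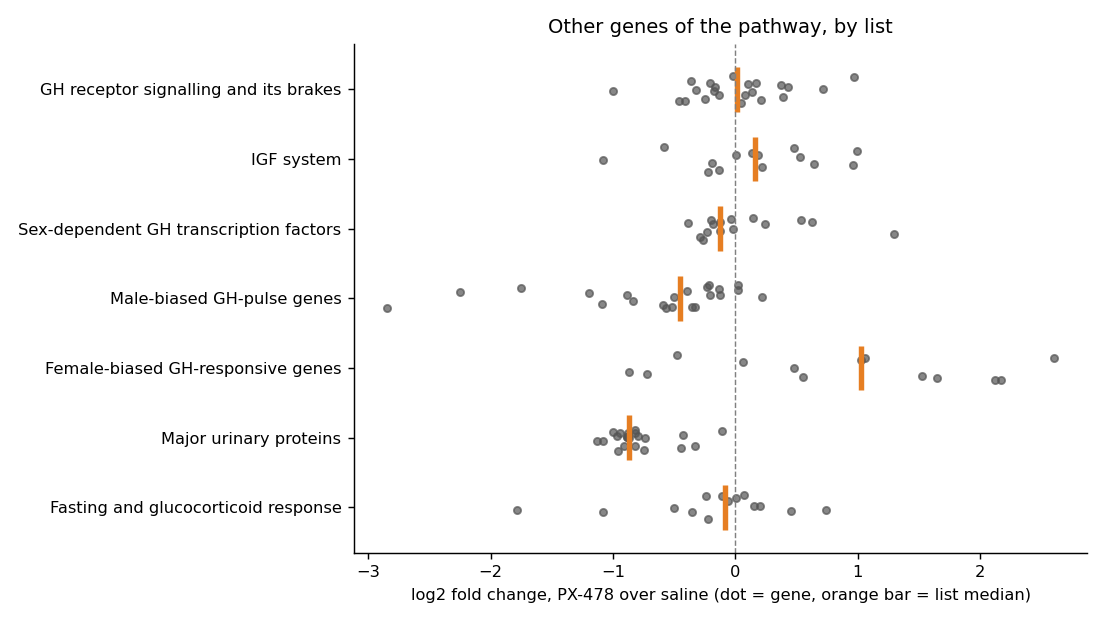
Horizontal axis, log2 fold change (PX-478 over saline); each dot is a tested gene of the 7 lists, with the list median as an orange bar. Medians run from -0.87 for the major urinary proteins other than Mup20 to 1.03 for the female-biased genes.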

How the data were processed

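Liver RNA of 3 PX-478 and 4 saline mice was compared, with groups taken from the sample titles. The authors deposited raw read counts per gene, counted with featureCounts on mm10, per the submitters' processing notes. Aligner, strandedness and versions are not given in the sources used here, so reads of overlapping genes cannot be told apart; Gm41254 overlaps Ghr, Gm33230 Socs2, Igf1os Igf1, Gm41549 Igfals, Gm31527 Bcl6 and Mup-ps21 Mup20. The log2 fold change and the unadjusted p-value cited from the authors' deposited table are from their edgeR test. The 2 count columns of a sample differed by less than the sampling noise (chi-square per gene 0.291 to 0.765, against 49.2 to 146 between samples of a group) and were averaged, rounded and counted as 1 sample. A further 7 columns, averages for single samples, were left aside. Nothing states separate housing or extraction, so a p-value reflects only how these samples vary, which may be technical.

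The count table was filtered with filterByExpr, scaled by TMM and tested with edgeR 4.0.16 (robust quasi-likelihood, R 4.3.3), with Benjamini-Hochberg adjustment over all genes tested. Correlations used log2 CPM with a prior count of 2. Positions are from RefSeq GRCm38.p6, the coordinates of mm10, and exon lengths from GENCODE M21. Of each list the 3 genes with the smallest p were named, apart from some not reported here, with the highest and lowest Mup entries and the 3 genes most and least like Mup20; others are marked as named after their values were seen. The members and lists were chosen with earlier results of these data known. Alternatives were other scalings, filters and tools (DESeq2 1.42.0, limma 3.58.1), a replicate block, each count column, and leaving out single libraries, mitochondrial genes or Mup genes.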

Additional observations from a re-analysis of the deposited data

Results flagged for a closer look

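Within the 4 saline livers, Cish in replicate 4 stood far from the others, at 89.7 CPM against 14.0 to 25.6 CPM, and Stat5a in replicate 3 stood far below the others, at 17.8 CPM against 25.9 to 27.3 CPM. Such gaps arise by chance in about 1 of 20 groups, and 10 genes were examined. The PX-478 group, with 3 libraries, was not examined in this way. PX-478 replicate 1 had a Stat5a level of 17.7 CPM, close to that of saline replicate 3.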

How the results depend on the processing

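No member passed the threshold in any of 20 alternative settings (200 refits, smallest adjusted p 0.492; DESeq2 gave no adjusted p for Cish). Ghr, Stat5b, Bcl6 and Mup20 kept their direction in all of them. Scaling by library size alone shifted the median of all genes to 0.15 on the log2 scale; there Igf1 stood at 0.16 and Stat5a at 0.085, or 0.01 and -0.06 relative to that median. Igf1, whose value was near 0, also changed sign with RLE scaling (0.00032), upper quartile scaling (0.0014), at least 10 reads in every library (0.0023), DESeq2 (0.00033), limma-voom (0.022) and the first count column (0.0055). With limma-voom Socs2 was -0.026 and Cish -0.46. Leaving out single libraries moved Cish between -2.06 and 1.17, Socs2 between -0.73 and 0.46, Igfals between -0.44 and 0.047, Igf1 between -0.10 and 0.16, Stat5a between -0.24 and 0.14 and Jak2 between -0.073 and 0.27. The cause was not tested.

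Over all genes 1 passed, against 5 with library size alone, 0 with at least 10 reads in every library, 83 in DESeq2 and 0 in limma-voom, and 1 to 5 without single libraries. Of the pathway genes 0 passed, against 2 in DESeq2 (1 of them Elovl3, adjusted p = 0.0296) and 0 to 1 without single libraries. With a replicate block 3 genes passed, 1 of them a pathway gene (G6pc), and under the block Socs2 was -0.017 and Igfals 0.048. Libraries with the same number did not deviate together (correlations -0.07 to -0.0017), and 0 of 3 matched best with their own number. These values gave no sign of pairing by number, but 3 pairs are too few to exclude it.

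With the sum of all Mup entries in place of Mup20, r was -0.36 with Socs2, -0.14 with Cish and 0.094 with Bcl6. Without single libraries r ranged from -0.16 to 0.58 for Socs2, from 0.22 to 0.65 for Cish and from -0.65 to 0.13 for Bcl6, against 0.16, 0.43 and -0.36 with all 7; the Cish values form clusters. Leaving out all Mup genes, a setting chosen after seeing the data, left 1 gene past the threshold. The interval of Cish spans -2.81 to 3.19 on the log2 scale with at least 124 reads in every library.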

Other observations

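The 45 pairs of the 10 genes were also compared across the 7 libraries, a choice made after seeing the data. With exact permutation tests 5 pairs had an unadjusted p under 0.05 and 0 did after adjustment over the 45 (smallest adjusted p = 0.393). The smallest p belonged to Stat5b with Socs2, with r = -0.84 (exact permutation p = 0.0111) and Spearman's rho = -0.82 (exact permutation p = 0.0341). Without PX-478 replicate 2 and saline replicate 1, the libraries farthest from the median of Stat5b, r was -0.43. The size of r thus depended on those libraries, though leaving out extremes narrows the range of Stat5b and can itself shrink r. After TMM scaling Stat5b was lowest in PX-478 replicate 2 (44.6 CPM) and, among saline livers, in replicate 4 (52.6 CPM), the libraries with the highest Cish. Scaled by library size alone it was not: PX-478 replicate 2 had 57.4 CPM against 51.6 CPM in PX-478 replicate 3. Saline replicate 3, at 48.7 CPM, then lay below saline replicate 4, at 50.8 CPM. The correlation of Stat5b with Socs2 was not computed with that scaling.

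The prolactin receptor gene Prlr, a relative of Ghr, had 53.1, 15.3 and 55.5 CPM in PX-478 and 15.6, 65.7, 28.9 and 17.8 CPM in saline. It was named after its values were seen, and its log2 fold change was 0.37 (SE 0.63).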
